A study of Mus musculus with 16 samples.

Results

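Lars2 and 5 comparison genes were followed through 16 RNA-seq libraries of knee joint cells: Iars2, Vars2, Nars2 and Sars2, which like Lars2 encode mitochondrial aminoacyl-tRNA synthetases, and mt-Nd6, which is encoded by the mitochondrial genome. These 6 genes were taken by name from the 13733 genes with values. The set was chosen by measured values: the level of Lars2 was known from these libraries to vary widely between mice, so its levels and fold changes are given as a description without a test. All 6 passed the filter on low values, which kept the 13173 genes that reached a normalized value of 1 CPM (reads of a gene scaled to a common library size) in at least 4 libraries.

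Libraries came from C57BL/6 mice, either wildtype (WT) or Trem2-/-, a purchased knockout line on the same background that carries the Trem2em2Adiuj allele. Trem2 is a receptor of macrophages and other myeloid cells. One set of each genotype was uninjured (WT D0 and Trem2-/- D0). The others were analysed 7 days after a single compressive load on the tibia that injures the anterior cruciate ligament (WT D7 and Trem2-/- D7), and each of the 4 groups had 4 libraries, each taken here as 1 mouse and numbered as in the labels. The age at injury is given as 10 weeks and the age of the mice as 16 weeks, which were not reconciled. The study describes cells released from the joint by collagenase, whereas the labels describe homogenized joints, and enrichment of CD45+ cells in these libraries is not stated. All 16 libraries derive from mixed joint cells, so a lower level may mean fewer cells of a type or less RNA per cell, which cannot be told apart.

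Aminoacyl-tRNA synthetases join each amino acid to its tRNA before translation. Mitochondria carry a protein synthesis machinery of their own that makes core subunits of the respiratory chain, and their synthetases are encoded in the nucleus, made in the cytosol and imported. Lars2 charges tRNA with leucine, Iars2 with isoleucine, Vars2 with valine, Nars2 with asparagine and Sars2 with serine. mt-Nd6 encodes a membrane subunit of respiratory complex I, and its coding sequence lies on the mitochondrial DNA strand that carries few other genes.

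In the mm10 build (GRCm38), Lars2 (ENSMUSG00000035202) lies at chr9:123366927-123462666 on the plus strand. Iars2 (ENSMUSG00000026618) lies at chr1:185284726-185329396 on the minus strand, and Vars2 (ENSMUSG00000038838) at chr17:35655634-35667592 on the minus strand. Nars2 (ENSMUSG00000018995) at chr7:96951505-97064758 and Sars2 (ENSMUSG00000070699) at chr7:28741992-28753871 are both on the plus strand. mt-Nd6 (ENSMUSG00000064368) occupies chrM:13552-14070 on the minus strand. Its last 14 bases overlap the end of mt-Nd5 on the opposite strand. mt-Nd5 had no row among the values, and mt-Nd6 was the only mitochondrially encoded gene that had one. The last 60 bases of mt-Nd6 are shown because reads in the overlap, in capitals, belong to both genes unless the strand was used in counting.
mt-Nd6 chrM:13552-13611, minus strand: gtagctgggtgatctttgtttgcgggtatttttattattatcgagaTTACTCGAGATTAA
The remaining bases of mt-Nd6 are shared with no other annotated exon. No stretch of 75 bases, the cycle number of the sequencing kit, occurred in the transcript of another gene. The study's methods give no read length, and shared stretches shorter than 75 bases were not counted.

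The same search over the annotated transcripts found no shared 75-base stretch in Lars2 or Sars2. In Iars2, 22.1% of the 75-base stretches were shared, with Rab3gap2, which overlaps it by 2034 exon bases, and with an antisense transcript. The share was 5.42% in Vars2 (with Gm20483) and 2.90% in Nars2 (with C230038L03Rik), both on the opposite strand. Whether counting used the strand, and how it treated reads that overlap another gene, is not stated. Reads in these stretches may therefore come from the other gene or may not have been counted.

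A BLAST search of 1 of the 9 Lars2 transcripts (3894 bases) against the annotated transcripts of other genes kept a single near match. The other Lars2 transcripts were not part of this search, and shorter or less alike matches are not listed. In the 3′ untranslated region of Lars2 (exon 21 of 21, chr9:123462048-123462119), a stretch of 72 bases was 98.6% identical to an antisense transcript of Gm15564 on chromosome 16. They differed by A53T, with positions counted from 1 at the start of the Lars2 stretch and the Lars2 base given first. Gm15564 had no row among the values. As background, near-copies of this stretch are known from the RNA of the large ribosomal subunit, a sequence that was not analysed here, and the part of such reads in the Lars2 values was not tested. Of the ribosomal RNA genes looked for by name, 0 had a row.

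The promoters of the 5 nuclear genes, in RefSeq sequence of GRCm38.p6 from 250 bases before to 50 after the start site, shared a short motif. The GC box GGGCGGG, searched on both strands, was present in 5 of 5, against 25.6% of 32851 promoters of the same length. The window around the GC box nearest the start site is shown for each gene, so that the widely varying Lars2 can be set beside the other 4, with the box or its reverse complement in capitals.
Lars2 chr9:123366791-123366837, plus strand: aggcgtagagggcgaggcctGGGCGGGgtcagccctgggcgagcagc
Iars2 chr1:185329387-185329433, minus strand: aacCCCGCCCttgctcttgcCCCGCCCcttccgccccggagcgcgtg
Vars2 chr17:35667595-35667641, minus strand: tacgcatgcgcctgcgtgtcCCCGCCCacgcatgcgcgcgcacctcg
Nars2 chr7:96951395-96951441, plus strand: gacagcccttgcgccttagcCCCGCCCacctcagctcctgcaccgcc
Sars2 chr7:28741927-28741973, plus strand: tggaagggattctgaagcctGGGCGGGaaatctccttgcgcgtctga
The motif was chosen after the sequences were seen. Of the other motifs searched on both strands, the ETS core CCGGAAG was in 1 of them (Sars2) against 8.86% of all promoters, the core of nuclear respiratory factor sites GCATGCGC in 1 (Vars2) against 2.71%, and CCAAT in 2 (Iars2 and Sars2) against 37.4%. A match is a description of letters and not a binding site.

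Depth ranged from 11567073 to 32867818 reads per library, and 3 reads corresponded to 0.101 to 0.250 CPM. Trem2 itself ranged from 2.51 to 5.61 CPM in WT D0 and from 10.7 to 22.5 in WT D7, against 0.948 to 2.68 in Trem2-/- D0 and 3.42 to 4.84 in Trem2-/- D7. The libraries held marker RNA of several cell types, and sums of these genes differed between D0 and D7. The neutrophil sum (4 genes) was 10950 to 33378 CPM over the D0 libraries and 3407 to 11058 over the D7 libraries, and the chondrocyte sum (3 genes) 179 to 8782 and 21673 to 61495. No gene of the 9 marker lists was at 0 in any library.

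Lars2 varied about 100-fold between libraries, from 205 CPM in Trem2-/- D0 replicate 1 to 20952 CPM in WT D7 replicate 2, with a median of 782 CPM. In WT D0, Lars2 was at 6953, 255.7, 712 and 3355 CPM in replicates 1 to 4, the order used for all values by library. In WT D7 it was at 347, 20952, 974.7 and 673 CPM. In Trem2-/- D0 it was at 205, 853, 305 and 369 CPM. In Trem2-/- D7 it was at 584, 8751, 3184 and 8529 CPM. A set of 6 libraries stood at 3184 CPM or above and the other 10 at 974.7 CPM or below, with none between. Those 6 were 3 of Trem2-/- D7, 2 of WT D0 and 1 of WT D7, and 0 of Trem2-/- D0. High and low libraries therefore occurred side by side in 3 of the 4 groups, which the plot of the level in each mouse shows.

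The order of the group means was WT D7 (5736 ± 10147 CPM, SD, n = 4), Trem2-/- D7 (5262 ± 4043), WT D0 (2819 ± 3076) and Trem2-/- D0 (433 ± 288). Neighbours in this order overlapped in every case, and their means differed by less than the larger of their SDs. A single mouse set the first place: without WT D7 replicate 2, the WT D7 mean was 665 ± 314 CPM (n = 3), below WT D0. By medians the order was Trem2-/- D7 (5857 CPM), WT D0 (2033), WT D7 (824) and Trem2-/- D0 (337). The ratio of the highest to the lowest library within a group was 60.4 in WT D7, 27.2 in WT D0, 14.97 in Trem2-/- D7 and 4.16 in Trem2-/- D0.

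**Figure D1:**
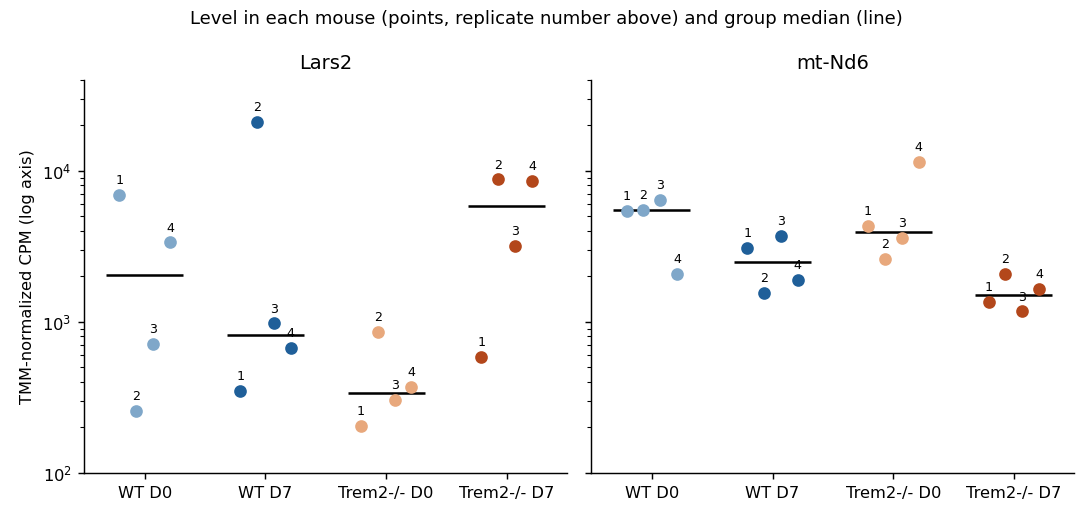
Level of Lars2 (left) and mt-Nd6 (right) in each of the 16 libraries, in TMM-normalized CPM on a log axis, by group. Points are mice with the replicate number above, and lines are group medians. Lars2 spans 205 to 20952 CPM with high and low mice in the same group, and mt-Nd6 spans 1172 to 11456 CPM and lies lower at D7 than at D0 in Trem2-/- mice without overlap.

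These levels rest on many reads. Lars2 had 3049 reads in its lowest library and 369905 in its highest, which was 1.93% of all reads of that library (95% Wilson interval 1.926% to 1.938%), against 0.0222% in the lowest (0.0214% to 0.0230%). These intervals cover counting error only. Ranked by CPM among all genes, Lars2 was 3rd in WT D0 replicate 1, 6th in WT D7 replicate 2 and 881st in Trem2-/- D0 replicate 1.

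Per kilobase of exon, the Lars2 level ranged from 18.5 to 1889 CPM per kb with a median of 70.6. The length of a gene was taken as all its annotated exons together, 11089 bases for Lars2 over 9 transcripts. The Lars2 transcript used in the BLAST search has 3894 bases, and a shorter length would raise the Lars2 level per kb. Over the 18 other mitochondrial synthetases, medians ranged from 0.299 CPM per kb for Pars2 (proline) to 46.7 for Gars (glycine), which serves both the cytosol and mitochondria. By these lengths, none of these 18 was higher than Lars2 per kb in 10 of 16 libraries, and in the other 6 only Gars was. Those 6 may depend on the length taken for Lars2, and other lengths were not tested. Even the lowest Lars2 library was therefore above Iars2 (median 4.74 CPM per kb), Sars2 (2.12), Vars2 (1.89) and Nars2 (0.694). By the same lengths mt-Nd6, with a gene of 519 bases, had the highest level of the 6, at 2258 to 22074 CPM per kb.

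The spread between mice of one group, measured as the SD of log2(CPM + 1) pooled over the 4 groups, was 1.98 for Lars2. This was rank 1 of the 13173 genes tested, with Col9a1, a cartilage collagen, next at 1.89. The rank was 4 with a pseudocount of 0.1 and 2 with quantile normalization. By group, Lars2 was rank 9 in WT D0, 1 in WT D7, 183 in Trem2-/- D0 and 2 in Trem2-/- D7. The pooled spread was 0.68 for mt-Nd6 (rank 258), 0.28 for Sars2 (rank 5497), 0.22 for Nars2 (rank 7526), 0.20 for Iars2 (rank 8361) and 0.19 for Vars2 (rank 8745). The median over all genes was 0.24. Over the 18 other mitochondrial synthetases the spread ran from 0.11 (Kars, lysine) to 0.29 (Pars2), so that none came near Lars2. Without WT D7 replicate 2 the spread of Lars2 was 1.58 and its rank 7, the lowest rank over the 16 fits that each left out 1 library. Lars, the cytosolic leucyl-tRNA synthetase, ranged only from 45.9 to 60.1 CPM over the 16 libraries, 1.31-fold, in which Lars2 ranged 102-fold.

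**Figure D2:**
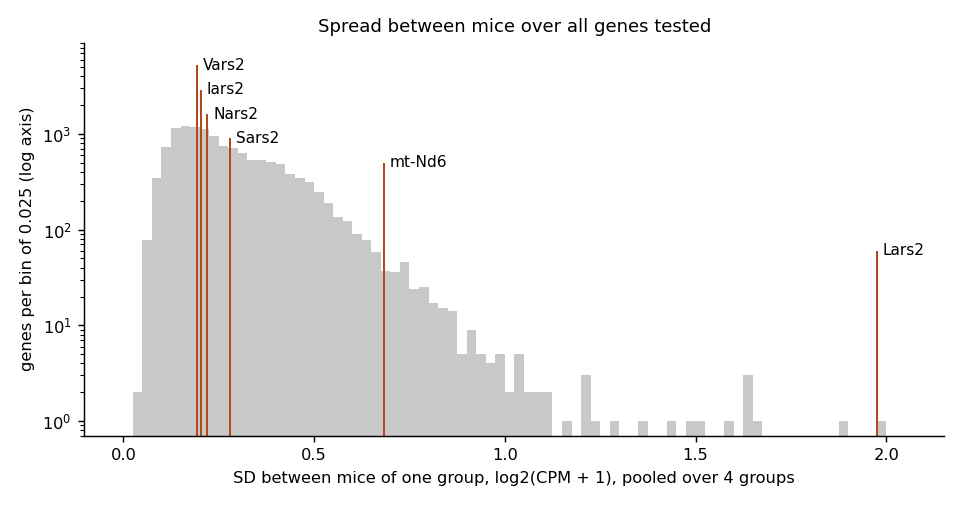
Histogram of the spread between mice over the 13173 genes tested. The x axis is the SD of log2(CPM + 1) within groups, pooled over 4 groups, and the y axis is the number of genes per bin of 0.025 on a log axis. Lines mark the 6 genes: the 4 other synthetases lie near the median of 0.24, mt-Nd6 at 0.68 and Lars2 at 1.98 at the far end.

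The 4 other synthetases varied far less than Lars2, from 1.53-fold (Iars2) to 2.37-fold (Sars2) over the 16 libraries. Within single groups their SD of log2(CPM + 1) ran from 0.07 for Iars2 in Trem2-/- D7 to 0.38 for Sars2 in WT D7. Iars2 was at 43.2, 48.9, 38.4 and 34.0 CPM in WT D0 and at 42.1, 50.1, 32.8 and 37.5 CPM in WT D7. The Trem2-/- libraries had Iars2 at 34.7, 42.1, 38.5 and 49.6 CPM at D0 and at 46.2, 42.2, 43.2 and 40.9 CPM at D7. The 4 groups overlapped, with means between 40.6 and 43.1 CPM, and the library with the highest Lars2 also held the highest Iars2 (50.1 CPM), at a level 1.53-fold above the lowest.

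Vars2 was at 10.4, 12.0, 9.67 and 9.31 CPM in WT D0 and at 11.4, 13.8, 9.10 and 9.38 CPM in WT D7. In Trem2-/- mice Vars2 was at 9.41, 11.7, 10.3 and 9.11 CPM at D0 and at 14.0, 11.4, 11.8 and 9.675 CPM at D7. Its groups overlapped as well, with means of 10.1 to 11.7 CPM.

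Sars2 was at 6.21, 9.94, 8.72 and 8.115 CPM in WT D0 and at 9.26, 6.85, 5.76 and 4.51 CPM in WT D7. For Trem2-/- mice the Sars2 values were 8.603, 6.38, 10.7 and 8.496 CPM at D0 and 7.06, 6.27, 7.00 and 5.17 CPM at D7. The D7 means (6.60 ± 2.02 and 6.37 ± 0.878 CPM) were below the D0 means (8.25 ± 1.55 and 8.54 ± 1.75 CPM) in both genotypes, but the groups overlapped in both.

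Nars2 was at 4.90, 5.54, 5.90 and 3.65 CPM in WT D0 and at 4.25, 5.04, 3.72 and 3.74 CPM in WT D7. Nars2 in Trem2-/- mice was at 4.97, 5.12, 4.77 and 6.72 CPM at D0 and at 4.60, 4.41, 4.1995 and 6.67 CPM at D7. Replicate 4 was the highest in both Trem2-/- groups, and at D7 it stood apart from the other 3. Nars2 rested on 61 to 137 reads per library and Sars2 on 62 to 210, which limits their precision more than that of Iars2 (490 to 1376 reads).

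**Figure D3:**
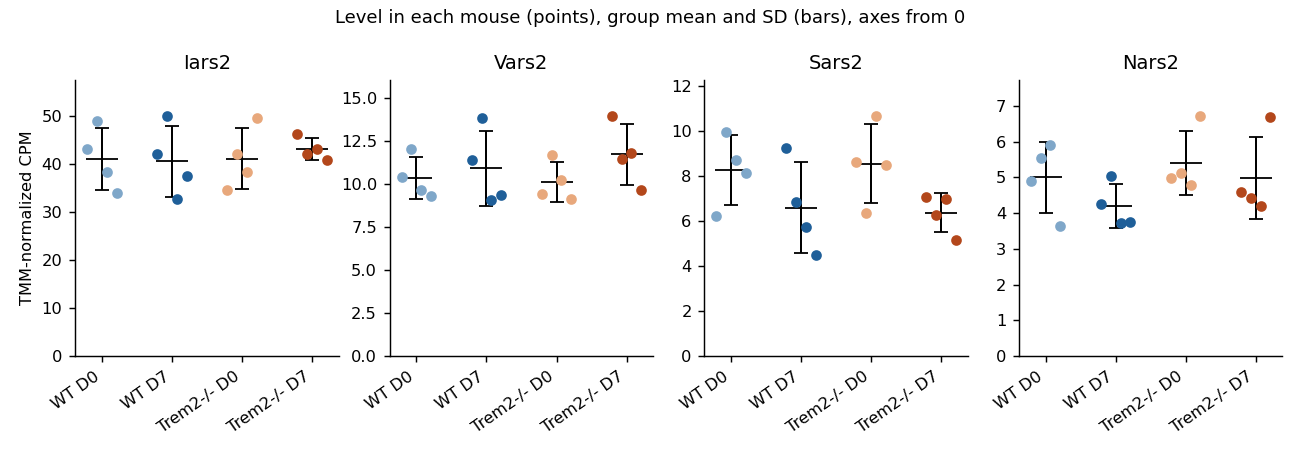
Levels of Iars2, Vars2, Sars2 and Nars2 in TMM-normalized CPM, with axes starting at 0. Points are the 4 mice of each group and bars are the group mean ± SD. Groups overlap for all 4 genes, and the Sars2 means are lower at D7 (6.60 and 6.37 CPM) than at D0 (8.25 and 8.54 CPM).

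The first comparison asked what changed with injury within each genotype. It was tested with limma on log2(CPM + 1) over all 16 libraries, and a gene was called, by the rule of the study, at an unadjusted p below 0.05 with the higher group more than 25% above the lower. Among all genes this rule called 37.4% in WT (19.3% higher and 18.2% lower at D7) and 54.5% in Trem2-/- mice (26.5% higher and 27.9% lower). At an adjusted p below 0.05 the shares were 28.5% and 53.2%. Iars2, Vars2, Nars2 and Sars2 were called in neither genotype. In WT mice the log2 difference D7 minus D0 was -0.02 for Iars2 (95% interval -0.32 to 0.28), 0.06 for Vars2 (-0.25 to 0.37), -0.20 for Nars2 (-0.55 to 0.15) and -0.30 for Sars2 (-0.72 to 0.11). In Trem2-/- mice it was 0.07 for Iars2 (-0.23 to 0.37), 0.19 for Vars2 (-0.12 to 0.50), -0.11 for Nars2 (-0.45 to 0.24) and -0.36 for Sars2 (-0.77 to 0.05). The adjusted p of Sars2 was 0.24 in WT and 0.13 in Trem2-/- mice. The interval of Iars2 reached no further than 0.37 from 0 in either genotype.

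Lars2 moved by 0.04 on the log2 scale in WT mice and by 3.19 in Trem2-/- mice (D7 minus D0), with an SE of 1.24 for each and no test. In WT mice the direction depended on single libraries, from -1.23 without WT D7 replicate 2 to 0.80, and on the processing, with -0.75 by quantile normalization, -0.03 by voom and 1.02 by edgeR. For Trem2-/- mice it stayed between 2.74 and 4.04, although the lowest D7 library (584 CPM) lay below the highest D0 library (853 CPM).

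mt-Nd6 fell after injury in Trem2-/- mice. It was at 4319, 2606, 3586 and 11456 CPM in Trem2-/- D0 and at 1360, 2081, 1172 and 1654 CPM in Trem2-/- D7. Every D7 library was below every D0 library. The difference was -1.60 on the log2 scale (SE 0.46, 3.03-fold, adjusted p = 0.0084 by limma). Without Trem2-/- D0 replicate 4, whose 11456 CPM was the highest of all libraries, it was -1.16 (unadjusted p = 0.012 by limma). No other mitochondrially encoded gene had values, so whether others fell as well could not be seen.

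In WT mice mt-Nd6 was at 5412, 5504, 6405 and 2081 CPM at D0 and at 3081, 1546, 3697 and 1893 CPM at D7. WT D0 replicate 4 lay within the range of the D7 libraries, and the other 3 lay above all of them. The difference of -0.89 (95% interval -1.86 to 0.07, SE 0.46, adjusted p = 0.15 by limma) was not called. Leaving out WT D0 replicate 4 gave -1.26 (unadjusted p = 0.012 by limma), and leaving out WT D7 replicate 3 gave -1.10 (unadjusted p = 0.039 by limma), both past the call rule. The interaction of genotype and injury was -0.71 (unadjusted p = 0.29 by limma), so the fall in Trem2-/- mice was not shown to differ from the change in WT mice.

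Several sums of marker genes changed along with mt-Nd6. In Trem2-/- mice the erythroid sum (3 genes) was 926 to 2027 CPM at D0 and 318 to 772 at D7, and the muscle sum (4 genes) 250 to 703 and 106 to 162. The leukocyte sum (5 genes) in these mice was 3182 to 5455 CPM at D0 and 1156 to 1445 at D7, so that none of these 3 sums overlapped between D0 and D7. This was not particular to them: the neutrophil, fibroblast and chondrocyte sums did not overlap either. The macrophage, endothelial and adipocyte sums did overlap. Over the 16 libraries, which share the groups, Spearman's rho with mt-Nd6 was 0.80 for the erythroid, 0.74 for the leukocyte and 0.72 for the muscle sum, and -0.76 for the fibroblast sum. For deviations from the group means, Pearson's r was 0.57 for muscle, 0.24 for erythroid and -0.02 for leukocyte genes. Their part in the fall of mt-Nd6 was not tested.

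Few of the other mitochondrial synthetases changed with injury. Of 18 without Lars2, 3 were called in WT mice (16.7%, against 37.4% of all genes) and 3 in Trem2-/- mice (16.7%, against 54.5%). The median log2 difference was -0.11 in WT and -0.04 in Trem2-/- mice, beside -0.04 over all genes in both. Gars was called in both genotypes, higher at D7 in each. The comparisons in the 2 genotypes share no library, but they share the estimate of the spread.

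Gars, the glycyl-tRNA synthetase of both compartments, rose from 104 to 150 CPM in WT D0 to 141 to 173 in WT D7 (1.30-fold, adjusted p = 0.028 by limma). Gars in Trem2-/- mice rose from 101 to 126 CPM at D0 to 166 to 198 at D7 (1.55-fold, adjusted p = 0.00048 by limma). The groups overlapped in WT and did not overlap in Trem2-/- mice.

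Ears2, which charges mitochondrial tRNA with glutamate, rose in WT mice from 2.57 to 3.16 CPM at D0 to 3.03 to 4.99 at D7. The rise was 1.31-fold for CPM + 1 (adjusted p = 0.046 by limma), with means of 2.87 and 4.13 CPM. Pars2 fell in Trem2-/- mice, 1.41-fold for CPM + 1 (adjusted p = 0.047 by limma), with means of 1.22 CPM at D0 and 0.587 at D7. Its values were only 0.280 to 1.55 CPM, from as few as 5 reads. These calls rested in part on single libraries and settings. Ears2 in WT and Pars2 in Trem2-/- mice were not called with a pseudocount of 5, and at a fold change over 1.5 Gars in WT mice, Ears2 and Pars2 were not called. In WT mice Gars was not called without WT D0 replicate 2, and Ears2 was not called without WT D7 replicate 4. In the other genotype Pars2 was not called without Trem2-/- D0 replicate 1, Trem2-/- D7 replicate 2 or Trem2-/- D7 replicate 3, whereas Gars was called with any 1 library left out. No interaction was called for these 3 genes over all libraries, so that a call in 1 genotype does not set the genotypes apart.

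**Figure D4:**
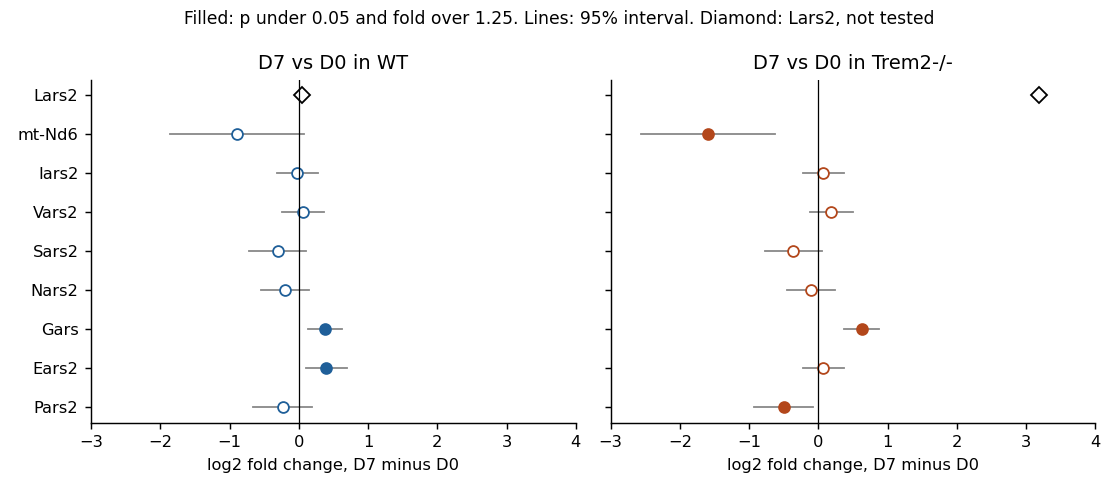
Log2 fold change D7 minus D0 in WT (left) and Trem2-/- mice (right) for the 6 members and for Gars, Ears2 and Pars2. Filled points were called, lines are 95% intervals of limma, and the diamond is Lars2, which was not tested. Gars is higher in both panels, mt-Nd6 is called in the right panel, and Lars2 stands at 0.04 and 3.19.

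Other parts of mitochondrial translation were counted in the same way. Of the 74 genes of the mitochondrial ribosome, 0 rose and 14 fell in WT mice (18.9% called), and 3 rose and 12 fell in Trem2-/- mice (20.3%). Among all genes the rule called 37.4% in WT (18.2% lower at D7) and 54.5% in Trem2-/- mice (27.9% lower). The share that fell in WT mice was therefore close to that of all genes. The lowest differences were -0.56 for Mrpl49 in WT and -0.71 for Mrpl33 in Trem2-/- mice, both of the large subunit, and the highest called was 0.38 for Mrps34, of the small subunit, in Trem2-/- mice. Of 9 translation factors, 0 had an unadjusted p below 0.05 in WT by limma, and 1 was called by edgeR and 1 by voom. In Trem2-/- mice 2 fell, among them Mtrf1l, a release factor that ends mitochondrial translation, by 0.61 on the log2 scale. Gatb, a subunit of the amidotransferase that completes glutaminyl-tRNA in mitochondria, fell by 0.37 in WT and by 0.45 in Trem2-/- mice. It was the only one called of 3 subunits in WT and 1 of 2 called in Trem2-/- mice.

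Of 23 genes of mitochondrial transcription and RNA handling, 1 rose and 4 fell in WT mice, and 4 rose and 3 fell in Trem2-/- mice. Mterf4, which takes part in the assembly of the mitochondrial ribosome, was 0.72 higher at D7 in WT and 0.56 higher in Trem2-/- mice on the log2 scale, and Mterf1a, a relative of it, fell by 0.62 in WT mice. Polg2, the accessory subunit of the mitochondrial DNA polymerase, fell by 0.80 in Trem2-/- mice. Of 18 cytosolic synthetases, 1 rose (Iars, isoleucine, 0.33) and 1 fell (Dars, aspartate, -0.37) in WT mice, and 4 rose and 3 fell in Trem2-/- mice, led by Tars (threonine, 0.66 higher) and Wars (tryptophan, 0.51 lower). The shares called in WT and Trem2-/- mice were 0 and 22.2% for the translation factors, 21.7% and 30.4% for transcription and RNA handling, 11.1% and 38.9% for the cytosolic synthetases and 33.3% and 66.7% for the 3 amidotransferase subunits, beside 37.4% and 54.5% of all genes.

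The second comparison asked whether genotype mattered at each time. At D7 the rule called 5.72% of all genes (1.18% higher and 4.53% lower in Trem2-/- mice) and at D0 2.15% (0.782% higher and 1.37% lower). For the interaction it called 7.79% (2.77% and 5.02%). At an adjusted p below 0.05, limma called 0 in each of the 3, against 753, 283 and 1026 by the rule. Of the 18 mitochondrial synthetases without Lars2, 0 were called at D7 and 0 at D0 by limma, edgeR or voom, and 0 had an unadjusted p below 0.05. The same held for the interaction. Without WT D7 replicate 3, 1 was called at D7 and in the interaction, Ears2. Of the mitochondrial ribosome 2 were higher in Trem2-/- mice at D7, led by Mrpl20 (0.40), and 1 at D0, Mrpl22 (0.36), while Mrpl20 also led the 2 called in the interaction (0.49). No gene of the other lists of mitochondrial translation, transcription and RNA handling or of the cytosolic synthetases was called in these comparisons.

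At D7 the log2 difference Trem2-/- minus WT was 0.10 for Iars2 (95% interval -0.20 to 0.40), 0.10 for Vars2 (-0.21 to 0.41), 0.19 for Nars2 (-0.15 to 0.54) and -0.01 for Sars2 (-0.43 to 0.40). At D0 it was 0.00 for Iars2 (-0.30 to 0.30), -0.03 for Vars2 (-0.34 to 0.28), 0.10 for Nars2 (-0.25 to 0.44) and 0.04 for Sars2 (-0.37 to 0.45). The furthest limit of these intervals was 0.54 on the log2 scale (Nars2 at D7), so a difference up to that size was not excluded for that gene.

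mt-Nd6 was at 1172 to 2081 CPM in Trem2-/- D7 and at 1546 to 3697 CPM in WT D7, a difference of -0.65 (95% interval -1.62 to 0.32, adjusted p = 0.81 by limma). A fit on the D7 groups alone gave an unadjusted p of 0.044 by limma for the same difference. The leukocyte sum was 1156 to 1445 CPM in Trem2-/- D7 and 1469 to 3195 in WT D7, and its part was not tested. At D0 the difference was 0.05 (-0.91 to 1.02), and it turned to -0.31 without WT D0 replicate 4 and to -0.38 without Trem2-/- D0 replicate 4. Lars2 differed by 1.22 at D7 and by -1.94 at D0 (Trem2-/- minus WT, SE 1.24 each, no test), with overlapping groups at both times. At D7 the direction was not settled: the mean CPM was higher in WT D7 (5736) than in Trem2-/- D7 (5262), and edgeR gave -0.12. With 1 library left out the D7 difference ran from 0.52 without WT D7 replicate 1 to 2.49 without WT D7 replicate 2, and the D0 difference from -2.76 without WT D0 replicate 2 to -1.18 without WT D0 replicate 1.

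The genes whose levels followed Lars2 most closely were ranked over 10551 other genes averaging 5 CPM or more, as a description over 16 libraries that share groups and depth. Scap, which escorts the sterol-regulated transcription factors to the Golgi, was first by both measures used, with Spearman's rho of 0.90 for levels and Pearson's r of 0.94 for log2 deviations from the group means. It was followed by Pgf, a growth factor of the VEGF family (rho 0.87), Tm4sf1 (0.86), Saraf, a regulator of calcium entry (0.85), and S100a16 (0.84). By deviations the next were Zbed5 (r = 0.89), Timm17a, part of the import channel of the inner mitochondrial membrane (0.85), and Yif1b (0.81). Their rho for levels was lower, at 0.44 for Zbed5, 0.76 for Timm17a and 0.66 for Yif1b. The genes most like Lars2 had far narrower ranges than Lars2: 6.11-fold for Scap, 4.91-fold for Pgf and 1.48-fold for Zbed5.

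Scap was at 114, 48.3, 50.5 and 84.7 CPM in WT D0 and at 57.9, 266, 59.2 and 58.7 CPM in WT D7. Scap in Trem2-/- mice was at 43.5, 54.5, 54.0 and 50.7 CPM at D0 and at 66.8, 133, 81.5 and 124 CPM at D7. The 6 libraries with the highest Lars2 were the same 6 that had the highest Scap, at 81.5 CPM or above against 66.8 or below in the others. Scap was picked for its likeness to Lars2 in these same libraries, so this is a description and no further result.

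**Figure D5:**
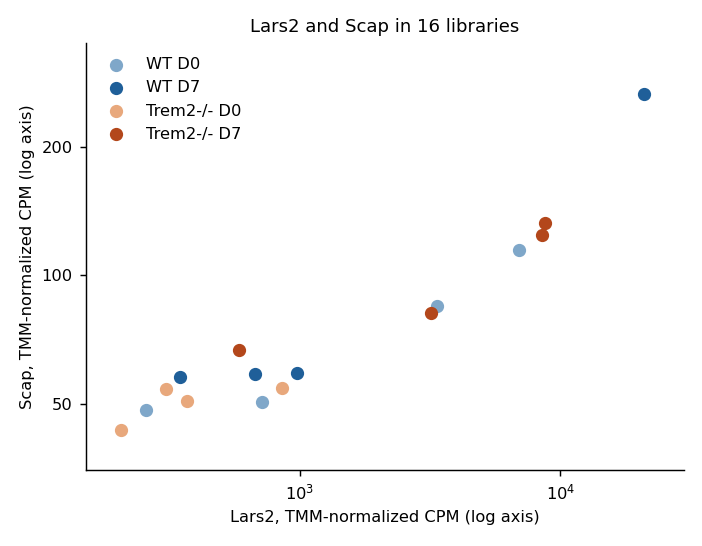
Scap against Lars2 in the 16 libraries, in TMM-normalized CPM on log axes, coloured by group. Scap was picked as the gene most like Lars2 in these libraries. The 6 libraries with Lars2 at 3184 CPM or above have Scap at 81.5 CPM or above, and the other 10 have Scap at 66.8 CPM or below.

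The other synthetases did not follow Lars2. Spearman's rho with Lars2 was 0.12 for Iars2, 0.12 for Vars2, -0.13 for Nars2 and -0.68 for Sars2, and ranged over the 18 from -0.68 for Sars2 to 0.57 for Gars, with a median of -0.15. It was -0.55 for the cytosolic Lars and -0.48 for mt-Nd6. Among the marker sums, the endothelial genes Pecam1 and Cdh5 had the highest rho with Lars2 (0.61, and r = 0.56 for deviations), and the leukocyte sum the lowest (-0.56, and r = -0.29). With reads per library rho was 0.21. In the library with the highest Lars2, the chondrocyte sum (23818 CPM) and the skeletal muscle sum (98.7 CPM) were the lowest of their group. The endothelial sum lay within the range of its group (1205 CPM, group range 911 to 1472), as did the other sums. The part of cell mixture or depth in the Lars2 values was not tested.

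For mt-Nd6 the closest genes by level were Zfp386 (rho 0.89), Tle4 (0.89), Pknox1 and Sp2 (0.88 each) and Ppm1d (0.88). By deviations from the group means they were Bcas3 and Cdkn2aip (r = 0.81 each), Hspb6 (0.78), Slc43a3 (0.74) and Nrap, a muscle gene (0.73). Spearman's rho between mt-Nd6 and the nuclear members was 0.44 for Sars2, 0.41 for Nars2, -0.13 for Iars2 and -0.47 for Vars2.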

How the data were processed

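The deposited table held 13733 genes in 16 libraries (1 duplicate row was left out). Per the labels and the study's methods, reads were aligned to mm10 (GRCm38) with STAR, counted with featureCounts and normalized by the authors with TMM in edgeR. Versions, annotation, strand setting and any filter on genes are not given in the sources used here. The labels name a poly(A) kit and the methods a stranded mRNA kit, which were not reconciled. The deposited values are a signal of TMM-normalized CPM. All values were whole multiples of the value of 1 read within 0.01 reads, so whole read counts were recovered from the deposited values for the count tests.

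Values were tested as log2(CPM + 1) with limma 3.58.1 (trend, R 4.3.3), 4 groups as 1 factor, on the 13173 genes with at least 1 CPM in 4 libraries, with Benjamini-Hochberg adjustment over these genes. Intervals are limma's, two-sided. No source used here states that replicates of these libraries were separate mice, so p-values measure the spread between these libraries. edgeR 4.0.16 and voom on the recovered reads were alternatives. Positions and overlaps came from GENCODE annotation of GRCm38, near matches from BLAST 2.17.0 and promoters from RefSeq. The members and gene lists were chosen with earlier results of these data known. Genes named beside the members were the called gene with the largest change in each direction per list and comparison (for the mitochondrial synthetases Ears2, Gars and Pars2; counts cover the whole list, and 1 further result is not reported here), and the 8 (Lars2) or 5 (mt-Nd6) genes most alike, of which some are named.

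Over all genes tested, replicate numbers did not pair the libraries (closing section, with Lars2 given apart), so no block was used.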

Additional observations from a re-analysis of the deposited data

Results flagged for a closer look

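In 24 sets of 4 libraries (6 genes in 4 groups), the gap of the highest or lowest library to its neighbour was set against the whole range of its group, and 2 passed Dixon's 95% critical value for 4 samples. Chance flags about 1 in 20 such sets. Lars2 in WT D7 replicate 2 stood apart with a ratio of 0.970, at 20952 CPM against 347 to 974.7 CPM in the other 3 libraries. Lars2 was chosen for its variation between these libraries, so its ratio is a description and no test. Nars2 in Trem2-/- D7 replicate 4 stood apart with a ratio of 0.837, at 6.67 CPM against 4.1995 to 4.60 CPM. The cause of neither was tested. No interaction of genotype and injury had a p below 0.05 for the 5 genes tested.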

How the results depend on the processing

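Among 690 results of the 5 tested members under other settings, 654 kept their direction and side of the call rule. Of the rest, 7 became calls, none lost a call and 29 turned in sign, all from uncalled values. Many of the 690 could not turn in sign. Leaving out a library of a group not compared leaves a difference unchanged, as do the filters and the fold change rule. The count of 654 is therefore no measure of stability. The fall of mt-Nd6 in Trem2-/- mice was called under all of these settings, with the unadjusted p by limma highest at 0.0121. In WT mice mt-Nd6 became a call with quantile normalization (-1.85) and without WT D0 replicate 4, WT D7 replicate 3 or Trem2-/- D0 replicate 4. Sars2 became a call in WT mice without WT D7 replicate 1 (-0.46) and in Trem2-/- mice without Trem2-/- D0 replicate 2 (-0.48). The mt-Nd6 difference between genotypes at D7 became a call in a fit on those groups alone. Lars2, which was not tested, ranged over the 12 other settings from -0.75 to 1.02 in WT mice, 2.91 to 3.60 in Trem2-/- mice, -0.12 to 1.41 between genotypes at D7 and -2.70 to -1.93 at D0. Nars2 could not be tested where genes needed a mean of 5 CPM.

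Of 18 synthetases, the count called in WT was 3, 0 with a fold change over 1.5 and 1 to 4 with 1 library left out (1, Ears2, without WT D0 replicate 2). In Trem2-/- mice it was 2 to 4, and for genotype at D7 and the interaction 0 to 1 each. Sars2 at D7 between genotypes was 0.014 with quantile normalization and 0.041 with voom, Iars2 at D0 -0.0016 with voom and the Sars2 interaction 0.0024 with voom. With 1 library left out, log2 differences in WT ran from -0.13 to 0.074 for Iars2 and -0.051 to 0.13 for Vars2, and in Trem2-/- mice from -0.0026 to 0.17 for Iars2. Between genotypes at D7 Sars2 ran from -0.16 to 0.14. At D0 the ranges were -0.088 to 0.089 (Iars2), -0.096 to 0.038 (Vars2), -0.019 to 0.17 (Nars2), -0.072 to 0.16 (Sars2) and -0.38 to 0.33 (mt-Nd6). For the interaction they were -0.033 to 0.21 (Nars2) and -0.20 to 0.10 (Sars2). Why they shifted is a cause that was not tested.

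Over all genes, 4933 were called in WT and 2985 with a fold change over 1.5. For genotype at D7, 753 became 1366 in a fit on those groups alone, 340 with a fold change over 1.5 and 479 without WT D7 replicate 3. At D0, 283 became 466 with edgeR, 164 with a pseudocount of 5, 149 in a fit on those groups alone, 131 with a fold change over 1.5 and 107 (without WT D0 replicate 4) to 1229 (without WT D0 replicate 2) with 1 library left out, with 433, 440 and 539 without WT D0 replicate 1, WT D0 replicate 3 and Trem2-/- D0 replicate 4. The interaction count of 1026 became 635 with a fold change over 1.5 and 609 to 2233 with the same libraries left out, and 660 without WT D7 replicate 3.

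Over all genes tested, same-numbered replicates did not deviate together. The correlation over 24 pairs ran from -0.51 to 0.41 with a median of 0.07. Of these, 11 were over 0.1, and in 8 pairs the libraries correlated best with their own number. For Lars2 alone, replicate 1 was the lowest and replicate 2 the highest in WT D7, Trem2-/- D0 and Trem2-/- D7. The reverse held in WT D0, and the cause was not tested. With a replicate block the synthetase counts were 3 in WT and 3 in Trem2-/- mice and 0 in the other comparisons, and over all genes 4891, 7094, 757, 279 and 1009. Low read counts limit Nars2, Sars2 and Pars2.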
